A study of Mus musculus with 10 samples.

Results

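The kynurenine pathway breaks tryptophan down to quinolinate, from which NAD can be built, while the salvage pathway rebuilds NAD from nicotinamide. Tdo2, Afmid, Kmo, Kynu, Haao and Qprt encode enzymes of the first route, in the order in which they act. Nampt encodes the salvage enzyme that makes nicotinamide mononucleotide, Nmnat2 and Nmnat3 encode enzymes that turn it into NAD, and Sirt1 encodes a deacetylase that consumes NAD. These 10 genes, of 22046 protein-coding genes in the table, were followed in cerebellum of mice with and without the clock gene Bmal1. They were chosen because footprints on Tdo2 fell in the knockout and because Nampt is a known clock target. The footprint and efficiency differences of Tdo2 are therefore descriptions here, with no test.

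The knockout group was Bmal1-/- and the control group was Bmal1+/+, littermates from crosses of Bmal1+/- parents on a C57BL/6 background, kept under a light phase of 12 h and a dark phase of 12 h. The labels name whole cerebellar tissue and no sex, age or hour of sampling, and the floxed Bmal1 and L7-Cre lines that the growth protocol also mentions are in neither genotype. For the animals analysed, each lysate gave ribosome footprints, the fragments of 28 to 34 nt that ribosomes shield from RNase I, and total RNA. Of the 10 libraries, 8 were analysed, namely both kinds of library for knockouts 1 and 3 and for wild types 2 and 3, so each comparison had 2 animals against 2.

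As background, BMAL1 pairs with CLOCK and binds E-boxes, whose core form is CACGTG, to switch on genes that cycle over the day. Nampt is such a gene in liver, where the NAD level follows it. SIRT1 uses that NAD and acts back on CLOCK and BMAL1. Tdo2 opens the ring of tryptophan, the first step of the kynurenine route, and is best known as a liver enzyme that tryptophan and glucocorticoids induce. In brain, most enzymes of the kynurenine route are scarce and some are found mainly in microglia or astrocytes, whereas Nmnat2 is a neuronal protein needed for axon survival.

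The 250 bases before the start site in RefSeq (build GRCm38.p6) were searched for the E-box on both strands in the 9 members that have such a window. CACGTG was found in 1 of the 9, Sirt1, at bases 115 to 110 and 43 to 38 before the start. Of 32817 mouse windows of the same length, 6.02% held at least 1 CACGTG and 0.43% held 2 or more, and 5 of 12 E-box-driven clock genes with a window held it. The windows of Sirt1 (minus strand, chr10:63339051-63339285, without the bases nearest the start, which lie in an annotated exon) and Nampt (plus strand, chr12:32820085-32820334) are shown because both genes are tied to the clock, with capitals marking CACGTG:
Sirt1: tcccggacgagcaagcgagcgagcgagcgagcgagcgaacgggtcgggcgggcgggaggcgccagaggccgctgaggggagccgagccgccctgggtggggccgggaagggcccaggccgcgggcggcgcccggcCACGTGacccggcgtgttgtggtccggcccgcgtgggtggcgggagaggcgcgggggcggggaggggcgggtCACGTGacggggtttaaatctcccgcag
Nampt: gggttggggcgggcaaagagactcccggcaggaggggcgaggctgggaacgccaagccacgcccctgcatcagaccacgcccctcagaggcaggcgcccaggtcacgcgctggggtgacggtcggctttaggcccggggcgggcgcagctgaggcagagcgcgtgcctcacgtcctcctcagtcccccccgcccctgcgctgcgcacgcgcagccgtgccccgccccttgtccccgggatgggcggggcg
The windows of Nampt and Tdo2 hold no CACGTG, which says only that these letters are absent there. That of Tdo2 (chr3:81975729-81975978) lies inside the span of the gene given below and wholly within annotated exons. The windows of Nampt, Sirt1, Kmo, Haao and Nmnat3 also lie inside the spans given below for those genes. The window of Haao also lies wholly within annotated exons, and only those of Nampt and Nmnat3 lie wholly outside them. Also searched on both strands were CACGTT (3.85% of windows), TTATGTAA or TTACGTAA (0.929%), AGAACA and TGTTCT with 3 bases between them (0.00914%) and AANT directly followed by AGGTCA (0.177%), the forms bound by clock factors, PAR bZIP factors, the glucocorticoid receptor and REV-ERB or ROR. None of these 4 was in a member's window.

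The libraries held 25.6 M to 43.2 M recovered reads, and both knockout total RNA libraries (38.9 M and 43.2 M) were deeper than both wild-type ones (25.6 M and 27.8 M). Bmal1 (Arntl) itself had footprints of 123.7 and 107.0 RPKM in the knockout animals against 257.6 and 294.7 in the wild-type animals. Its total RNA was 267.4 and 272.2 RPKM against 178.8 and 179.4, so the total RNA count of the gene was higher, not lower, in the libraries labelled knockout, and the part of the gene that was counted was not given. Summed over lists of markers, choroid plexus genes stood at 1859 to 2195 RPM (reads scaled to the depth of the library) of total RNA in the knockout against 66.9 to 873.1 in the wild type. Granule neuron genes stood at 7108 to 7165 against 5820 to 6177, microglial genes at 171.8 to 180.1 against 235.9 to 244.9, and oligodendrocyte genes at 3661 to 3850 against 4182 to 5799. Single markers were mixed, with 8 positive and 2 negative for granule neurons and 3 positive and 5 negative for oligodendrocytes. Astrocyte and Bergmann glia genes stood at 8265 to 8382 against 7651 to 7876 (6 positive, 5 negative). Purkinje cell genes stood at 9919 to 10909 against 11098 to 12286, and meningeal genes at 235.7 to 245.8 against 209.3 to 234.0. Every marker of these lists had reads in every library, and the part of cell makeup in the results was not tested. In whole tissue, fewer cells of a type and less RNA per cell cannot be told apart.

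Wild-type total RNA put the members far apart. RPKM compares a gene only with itself here, since its length factor does not follow coding length, so levels between genes are given as total RNA RPM per kilobase of coding sequence. On that scale the wild-type level was 346.2 ± 17.6 for Nmnat2, 61.4 ± 1.78 for Nampt and 17.8 ± 0.733 for Sirt1 (mean ± SD, n = 2 for each level here). Tdo2 followed at 6.12 ± 0.156, above Nmnat3 at 1.81 ± 0.0681 and Qprt at 1.48 ± 0.122. Afmid at 0.308 ± 0.0797, Haao at 0.270 ± 0.263, Kmo at 0.181 ± 0.0634 and Kynu at 0.0420 ± 0.0594 closed the order. Haao overlapped with Afmid and Kmo, and all 4 rest on 11 reads or fewer per library. Tdo2 thus had the highest level of the 6 kynurenine genes in wild type, and in the knockout its level was 1.01 ± 0.0815.

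**Figure D1:**
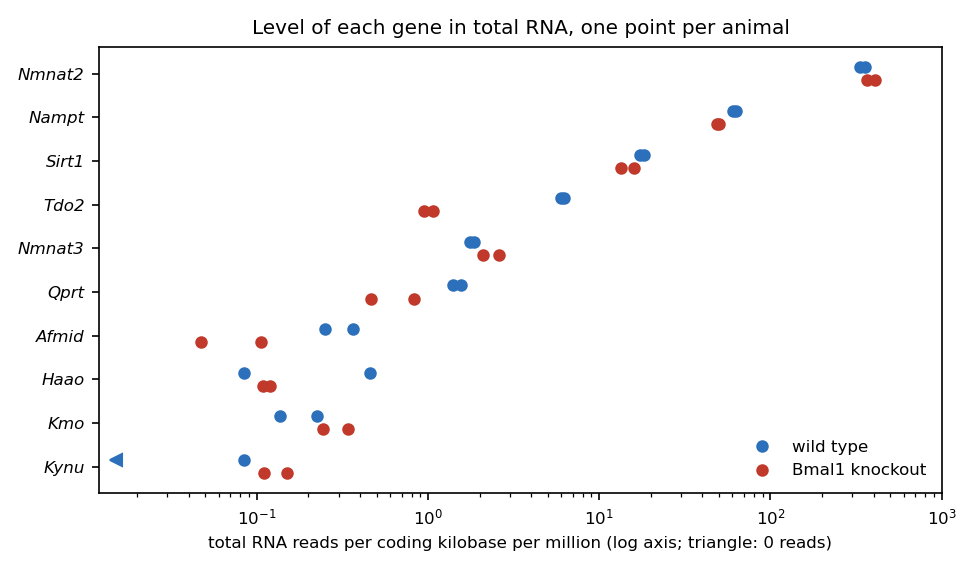
Total RNA level of the 10 members in each library, as RPM per kilobase of coding sequence on a log axis, with wild-type and knockout animals as separate points. Nmnat2, Nampt and Sirt1 lie above all kynurenine genes, and Tdo2 lies at a mean of 6.12 in the wild type and 1.01 in the knockout (a triangle marks 0 reads).

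Tdo2 (ENSMUSG00000028011, chromosome 3, bases 81957090 to 81976202, minus strand, mm10) had less RNA and fewer footprints in both knockout animals. Its total RNA was 0.392 and 0.438 RPKM in the knockout animals, from 45 and 56 reads, and 2.51 and 2.46 RPKM in the wild-type animals, from 194 and 203 reads. Both knockout values lay far below both wild-type values, and replicates within a genotype were close. Mean total RNA was 0.415 ± 0.0330 RPKM in the knockout against 2.48 ± 0.0357 in the wild type (SD, n = 2 each), a 5.98-fold difference. In the test by limma on log2(RPKM + 1) the difference was -1.30 ± 0.14 (SE), adjusted p = 0.00925, and 40 of 12690 genes had a larger decrease. That scale understates the change of a gene with low RPKM, and so its place among all genes. On recovered reads (limma-voom) the difference was -2.59 ± 0.31 (SE), adjusted p = 1.97e-06, and 11 of 13743 genes had a larger decrease. Only genes with reads in every library entered that fit, so genes that fell to 0 in a knockout library are not ranked there. The call was lost without knockout animal 1 (difference -1.28, adjusted p = 0.0529) and kept without each of the other 3, and with no filter the adjusted p was 0.0391. Total RNA and the footprints that led to the choice of Tdo2 come from the same lysates, so the total RNA test is not independent support.

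Footprints on Tdo2 were 0.873 and 0.649 RPKM in the knockout animals, from 98 and 54 reads. In the wild-type animals they were 8.25 and 7.39 RPKM, from 859 and 559 reads. The means, 0.761 ± 0.158 and 7.82 ± 0.610 RPKM (SD, n = 2 each), differed 10.3-fold, more than in total RNA. Footprint RPKM over total RNA RPKM, the translational efficiency, was 2.23 and 1.48 in the knockout against 3.29 and 3.01 in the wild type, so the groups did not overlap. The efficiency difference on the log2(RPKM + 1) scale was -1.03 ± 0.22 (SE), and on recovered reads -0.75 ± 0.49 (SE). With 0.1 added to RPKM in place of 1 it was -0.88 ± 0.36 (SE), so its size and error depend on the scale. Adding 1 shrank the difference in total RNA (-1.30 against -2.59 on recovered reads) more than in footprints (-2.33 against -3.34). These footprint and efficiency values chose the gene and were given no test.

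**Figure D2:**
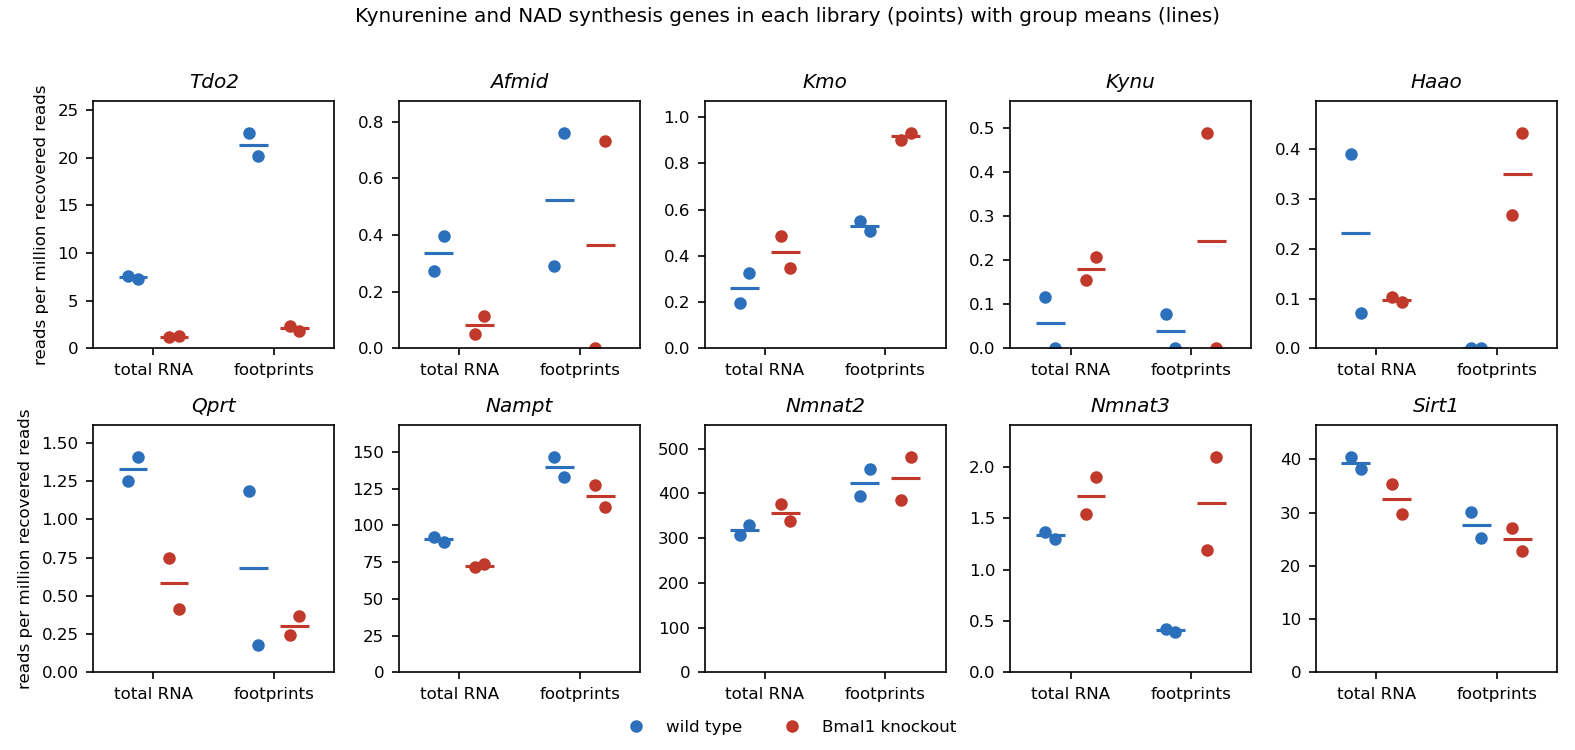
Each panel shows 1 member, with RPM in every library for total RNA and footprints, separated by genotype, and lines at the group means. Tdo2 has both knockout points well below both wild-type points in both kinds of library, while Nampt and Sirt1 show smaller separations in total RNA.

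Among the 10 members, 6 passed the filter of a mean of at least 1 RPKM and were tested in total RNA, and 1 of them, Tdo2, was called, against 4.09% of all genes tested. At an unadjusted p under 0.05 there were 3, against 22.1% of all genes, and on recovered reads 2 of 7 were called, Tdo2 and Nampt, against 12.2% of all genes. Of all 10 members the genotypes did not overlap in total RNA for 9. Among the 6 that passed the filter the number was 5, and over all genes that passed it the share was 55.0%. Tdo2, Afmid and Haao passed only through the wild-type group, whose mean was above 1 RPKM while that of the knockout was below it, so counts over the members that passed support nothing about their direction. The filter acts unevenly, because RPKM is not tied to coding length: Afmid and Haao passed it with mean total RNA counts of 6.25 and 5 reads, whereas Nmnat3 with 53.25 and Qprt with 29.5 did not. Kmo (12 reads) and Kynu (4.5) did not pass either.

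In footprints 5 members other than Tdo2 were tested and 0 were called by limma, against 0.233% of all genes. At an unadjusted p under 0.05 there was 1, Haao, against 10.4% of all genes, and on recovered reads 0 of 6 were called, against 1.58% of all genes. Haao passed the footprint filter only through the knockout group, as it was at 0 in the wild type. The genotypes did not overlap in footprints for 5 of all 10 members, Tdo2 included. Among the 6 members that passed the filter the number was 3, again with Tdo2, against 39.7% of all genes that passed it. In translational efficiency 0 of the same 5 were called by limma, against 0.0165% of all genes, with 1 (Haao) at an unadjusted p under 0.05, against 4.55% of all genes, and on recovered reads 0 of 6, against 0.00732% of all genes. Among all genes, 2 were called in efficiency.

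**Figure D3:**
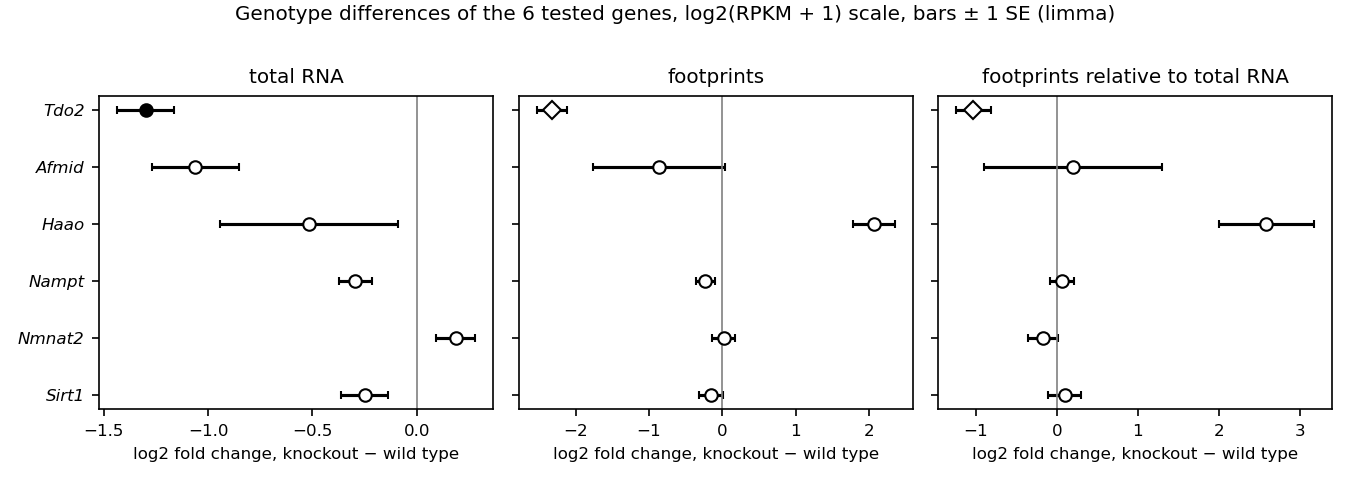
Log2 difference, knockout minus wild type, on the log2(RPKM + 1) scale with its standard error, for the members tested in total RNA, footprints and translational efficiency. Filled points have an adjusted p under 0.05, and diamonds mark the footprint and efficiency values of Tdo2, which were not tested.

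Nampt (chromosome 12, bases 32819545 to 32853349, plus strand) had total RNA that was lower in both knockout animals by an amount that did not pass the limma test. Its total RNA was 107.5 and 110.5 RPKM in the knockout against 135.6 and 132.2 in the wild type, from 2362 to 3178 reads. The 2 groups did not overlap, and the means of 109.0 ± 2.17 and 133.9 ± 2.41 RPKM (SD, n = 2 each) differed by -18.6%. The log2 difference was -0.29 ± 0.08 (SE), adjusted p = 0.112 by limma, and -0.32 with adjusted p = 0.0261 on recovered reads, so this call depends on the scale. Nampt was called on neither scale in footprints. Footprints on Nampt were 206.3 and 180.9 RPKM in the knockout against 237.8 and 216.1 in the wild type, a difference of -0.23 ± 0.13 (SE), adjusted p = 0.657. Efficiency was 1.92 and 1.64 against 1.75 and 1.64, which overlapped, with a difference of 0.06 ± 0.14 (SE).

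Sirt1 (chromosome 10, bases 63319005 to 63381704, minus strand) had total RNA of 67.3 and 56.5 RPKM in the knockout against 75.2 and 72.0 in the wild type. The groups did not overlap, but the knockout animals lay further from each other than the nearest animals of the 2 groups, and the difference of -0.25 ± 0.11 (SE) had an adjusted p of 0.252. Sirt1 shares 65 of its 5331 exon bases with the antisense gene Gm16145, and whether the counting used strand was not given. Sirt1 footprints overlapped, at 55.9 and 46.4 against 62.0 and 52.0 RPKM, with a difference of -0.15 ± 0.16 (SE). Its efficiency was below 1 in every animal, at 0.83 and 0.82 in the knockout against 0.82 and 0.72 in the wild type.

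Nmnat2 (chromosome 1, bases 152954993 to 153119261, plus strand) had total RNA of 242.3 and 217.5 RPKM in the knockout against 193.2 and 210.8. Over all members, mean total RNA RPKM was higher in the knockout for Nmnat2, Nmnat3, Kmo and Kynu and lower for the others. The difference of Nmnat2 was 0.19 ± 0.09 (SE), adjusted p = 0.317. Footprints on Nmnat2 ran from 268.1 to 330.9 RPKM over both genotypes and overlapped, with a difference of 0.02 ± 0.15 (SE), adjusted p = 0.990. Mean efficiency was 1.31 ± 0.293 in the knockout against 1.46 ± 0.0552 in the wild type (SD, n = 2 each), a difference of -0.17 ± 0.19 (SE).

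Nmnat3 (chromosome 9, bases 98287435 to 98420438, plus strand), the mitochondrial enzyme, was not tested by limma and is given by its reads. Its total RNA counts were 60 and 82 in the knockout against 35 and 36 in the wild type, a 1.31-fold difference in mean RPKM. Its footprint counts were 49 and 63 against 16 and 11, a 3.99-fold difference in mean RPKM. Efficiency of Nmnat3 was 0.836 and 1.18 in the knockout against 0.340 and 0.334 in the wild type, without overlap. On recovered reads the log2 differences were 0.36 in total RNA (adjusted p = 0.604), 1.85 ± 0.89 (SE) in footprints (adjusted p = 0.508) and 1.5 ± 0.81 (SE) in efficiency (adjusted p = 0.982). None passed, and the intervals these errors give are wide.

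The kynurenine enzymes after Tdo2 were measured from few reads, which limits each comparison. Kmo (chromosome 1, bases 175620381 to 175662116, plus strand), which adds a hydroxyl group to kynurenine and is known from microglia, had 19 and 15 total RNA reads in the knockout against 5 and 9 in the wild type. The knockout total RNA libraries were deeper, and mean total RNA RPKM of Kmo in the knockout was 1.63 times that of the wild type. Footprints of Kmo were 37 and 28 reads against 21 and 14, with RPKM means 1.72-fold higher in the knockout. On recovered reads neither difference passed, with adjusted p = 0.593 in total RNA and 0.861 in footprints. Mean efficiency of Kmo was 2.43 ± 0.619 in the knockout against 2.41 ± 1.01 in the wild type (SD, n = 2 each). Summed microglial markers went the other way, at 317.9 to 331.2 RPM of footprints in the knockout against 419.7 to 437.1 in the wild type, and of 11 markers tested in total RNA all 11 were negative and 2 were called lower (C1qb and Ctss). All 12 markers had reads in every library, and their part in the values of Kmo was not tested.

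Qprt (chromosome 7, bases 127107114 to 127122226, minus strand), which turns quinolinate into nicotinate mononucleotide, had 29 and 18 total RNA reads in the deeper knockout libraries and 32 and 39 in the wild type. Its mean RPKM in the knockout was 0.444 times that of the wild type, and the difference on recovered reads was -1.26 ± 0.49 (SE), adjusted p = 0.0943. Footprints of Qprt were 10 and 11 reads against 45 and 5, which overlapped, and wild-type animal 2 alone held most of them.

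Afmid (chromosome 11, bases 117825924 to 117839908, plus strand), the formamidase that acts just after Tdo2, had 2 and 5 total RNA reads in the knockout against 7 and 11 in the wild type. The groups did not overlap, and the difference was -1.06 ± 0.21 (SE), adjusted p = 0.0511. Afmid was tested only because its wild-type level carried it past the filter, and with no filter the adjusted p was 0.155. Its footprints were 0 and 22 reads against 11 and 21, with no order between the groups. Afmid shares 1566 of 3539 exon bases with Gm20708 on the same strand, a gene listed at 0 in every library, and 83 with Tk1 on the other strand, so its counts are uncertain.

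Haao (chromosome 17, bases 83831156 to 83847963, minus strand), whose product leads to quinolinate, had 4 and 4 total RNA reads in the knockout against 10 and 2 in the wild type. The total RNA difference was -0.52 ± 0.43 (SE), adjusted p = 0.525, and without wild-type animal 3 it was -1.22 with adjusted p = 0.0285. Without wild-type animal 2, which held 10 of the 12 wild-type reads, Haao did not pass the filter. In footprints Haao had 11 and 13 reads in the knockout and 0 in both wild-type libraries. With a floor of 3 reads over the wild-type group, footprint RPM was at least 7.40-fold higher in the knockout, a bound that covers counting error in the wild type only and takes reads as independent molecules. The limma test gave an adjusted p of 0.0895 and, with no filter, 0.189, and the gene entered it and the efficiency test only through its knockout footprints. The total RNA of Haao, by contrast, was not higher in the knockout, and its efficiency was 3.90 ± 1.54 there (SD, n = 2) and 0 in both wild-type animals (adjusted p = 0.768). Kynu (chromosome 2, bases 43555329 to 43682715, plus strand) had 6 and 9 total RNA reads in the deeper knockout libraries against 3 and 0. Footprints of Kynu were 20 and 0 reads against 3 and 0, and it was not tested.

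Other genes of the pathway were compared in the same way. Of 15 genes of tryptophan entry and of the side branches of the kynurenine route, 9 were tested in total RNA and 1 rose (2.48% of all genes rose), with a median difference of 0.05. On recovered reads 3 of 9 were called, against 12.2% of all genes. At an unadjusted p under 0.05 by limma there were also 3, against 22.1% of all genes. Tph2, which starts serotonin synthesis from tryptophan, was the one that rose, at 2.59 and 2.16 RPKM in the knockout against 0.665 and 0.979. The difference was 0.89, with adjusted p = 0.0402 by limma. Tph2 passed the filter for this call only through the knockout group (mean 2.37 RPKM, against 0.822 in the wild type). That call was lost without knockout animal 1 (adjusted p = 0.237), knockout animal 3 (0.101) or wild-type animal 2 (0.102). It was also lost with all libraries in one fit (0.103), with no filter (0.113) and after quantile normalization (0.0554). Tph2 also marks serotonin neurons of the brainstem, and the summed list of brainstem and midbrain markers that holds it went the other way, at 137.9 to 141.9 RPM in the knockout against 179.1 to 235.2. Hoxa5, Hoxb5 and Hoxc5 of that list were at 0 in at least 1 library, and the part of tissue makeup was not tested. Kyat3, which turns kynurenine into kynurenic acid, had the lowest difference, -0.29, adjusted p = 0.265. Ido1, Ido2, Aadat, Acmsd and Gpr35 had no reads in at least 1 library.

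Of 15 other genes of NAD synthesis and handling, 12 were tested in total RNA and 1 rose (2.48% of all genes rose), with a median of -0.02. At an unadjusted p under 0.05 by limma there was 1, against 22.1% of all genes. On recovered reads 1 of 12 was called, against 12.2% of all genes. Nt5e, which splits extracellular nucleotides, was the one that rose, at 4.87 and 5.53 RPKM in the knockout against 2.32 and 2.61, a difference of 0.84 ± 0.13 (SE), adjusted p = 0.0271. The call on Nt5e was lost without knockout animal 1 (adjusted p = 0.117), knockout animal 3 (0.130) or wild-type animal 2 (0.0708), and with no filter (0.108). Nadsyn1, which makes NAD from nicotinate dinucleotide, had the lowest difference, -0.35, adjusted p = 0.226. Of 14 NAD consumers 12 were tested in total RNA and 0 were called by limma, against 4.09% of all genes. There were 0 NAD consumers at an unadjusted p under 0.05, against 22.1% of all genes. On recovered reads 0 of 14 NAD consumers were called, against 12.2% of all genes. Their median was -0.01, between -0.22 for Parp2, which acts in DNA repair, and 0.19 for Sarm1, which destroys NAD in injured axons. In footprints 0 genes of these 3 lists were called by limma, against 0.233% of all genes. At an unadjusted p under 0.05 there were 0, 1 and 1, against 10.4% of all genes. On recovered reads 0 footprint differences were called in each list, against 1.58% of all genes.

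Clock genes driven through E-boxes gave a scale for these values. Of 15 tested in total RNA, 12 fell (1.61% of all genes fell) and 1, Cry1, rose, with a median of -0.87 against -0.02 over all genes. The genes that fell, from -0.63 for Bhlhe41 to -3.26 for Nr1d2, were Nr1d1, Nr1d2, Per1, Per2, Per3, Dbp, Tef, Hlf, Ciart, Bhlhe40, Bhlhe41 and Wee1. In footprints 4 of 15 fell (0.104% of all genes fell), namely Nr1d2, Dbp, Tef and Ciart, with a median of -1.19. On the log2(RPKM + 1) scale, which understates changes at low RPKM, Tdo2 at -1.30 in total RNA lay within the range of these genes. Nampt at -0.29 and Sirt1 at -0.25 lay nearer 0 than each of the 12. On recovered reads the difference of Tdo2 was -2.59, and its place among these genes on that scale is not given here.

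Of 11 glucocorticoid-induced genes, a list chosen because Tdo2 is one in liver, 10 were tested in total RNA, of which 4 fell and 1 rose, against 1.61% and 2.48% of all genes, with a median of -0.60 against -0.02 over all genes. Plin4, which coats lipid droplets, fell by 1.65 on the log2 scale, Zbtb16 by 1.40, Per1 by 0.87 and Tsc22d3 by 0.79. Cdkn1a, a cell cycle inhibitor, rose by 2.23. Of the 4 decreases, that of Plin4 was called in every fit that left out 1 library. Zbtb16 was lost without knockout animal 1 (adjusted p = 0.122) or wild-type animal 2 (0.0848) and Tsc22d3 without knockout animal 1 (0.0750). Per1, also a clock gene, was lost without knockout animal 3 (0.122), wild-type animal 2 (0.129) or wild-type animal 3 (0.0679). Per1 was also lost with all libraries in one fit (0.119), with no filter (0.174), with a pseudocount of 0.1 (0.0531) and after quantile normalization (0.0703), and Zbtb16 after quantile normalization (0.0523). With no filter the total RNA calls on Plin4 (0.0539), Zbtb16 (0.162), Tsc22d3 (0.0853) and Cdkn1a (0.0641) were lost too. In footprints Plin4 fell by 1.99 and Cdkn1a rose by 2.37, and both calls were lost in each fit that left out 1 library (adjusted p from 0.155 to 0.250) and with no filter (0.173 each), and that on Plin4 also on recovered reads (0.0668). No gene of the clock and glucocorticoid lists was called in efficiency by limma, against 0.0165% of all genes. At an unadjusted p under 0.05 there were 2 and 0, against 4.55% of all genes. On recovered reads 0 were called in each list, against 0.00732% of all genes.

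**Figure D4:**
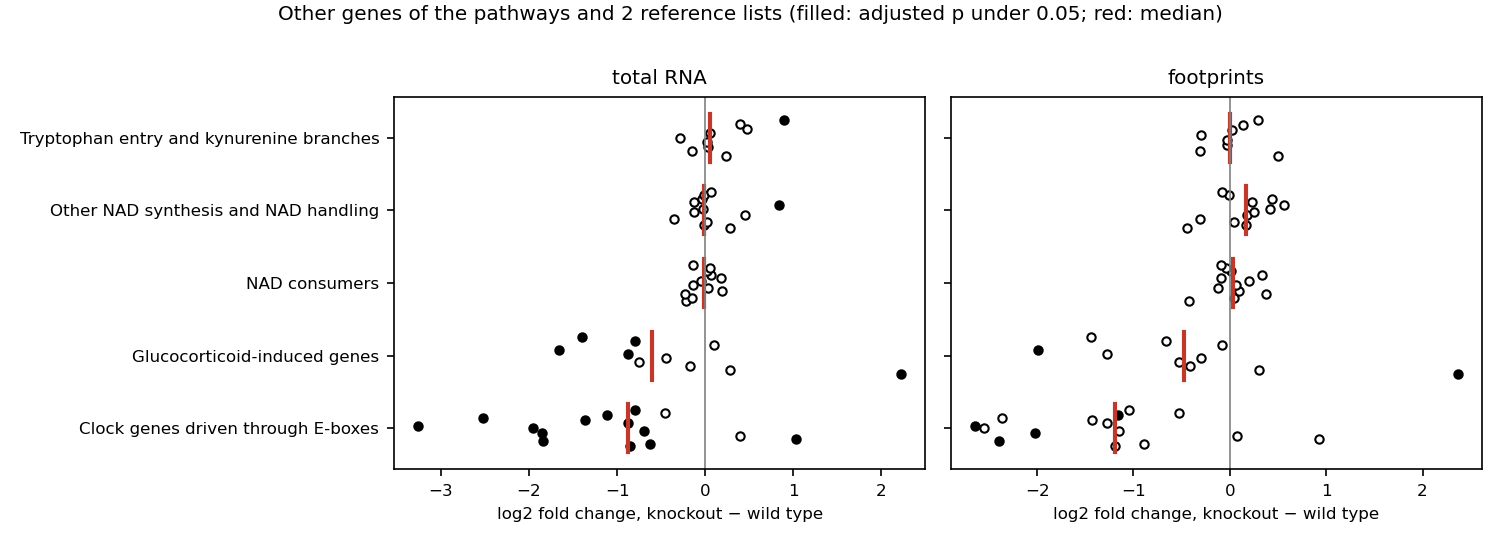
Log2 difference in total RNA and in footprints, knockout minus wild type, for each gene tested in the lists of tryptophan and kynurenine branches, other NAD genes, NAD consumers, E-box-driven clock genes and glucocorticoid-induced genes. Filled points have an adjusted p under 0.05 and red lines are medians. In total RNA the medians of the first 3 lists lie near 0, whereas that of the clock genes is -0.87.

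By Pearson's r over the 8 libraries, across 12089 genes and on log2(RPKM + 1), the 5 genes most like Tdo2 were Ciart (0.985), Trpc5 (0.978), Nat8f5 (0.976), Lrrtm3 (0.976) and Gpld1 (0.975). For Nampt they were Rida (0.999), Ctss (0.998), Chgb (0.996), Ramp2 (0.996) and Aldh6a1 (0.995). These r describe a pattern that holds both the genotype and the kind of library, with pairs of libraries from 1 lysate.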

How the data were processed

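Bowtie, STAR and Cufflinks were used with mm10, per the submitters' processing notes, which give no versions or roles. The deposited values are RPKM per gene and library, per the file headers. Translational efficiency was deposited by the authors as a ratio in another table, and 57411 of 57412 values checked equalled footprint over total RPKM within 2%. Ratios printed here were computed from RPKM. The authors' mean read count, a geometric mean over libraries, and the steps between low RPKM values gave whole reads: 100.0% of 2864 small values lay within 0.1 of a whole number. For genes with a 0, the reads are the smallest whole numbers that give the RPKM values. Of 10 libraries, 8 have a column, and the other 2 were not analysed here.

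Genotypes were compared with limma 3.58.1 (R 4.3.3) with a variance trend on log2(RPKM + 1), for genes with mean RPKM of at least 1, with Benjamini-Hochberg adjustment over all genes and a threshold of 0.05. Efficiency was the interaction of genotype and library kind. limma-voom on recovered reads (mean of at least 10, genes with reads in every library only) was an alternative. It called 1675 genes in total RNA, 217 in footprints and 1 in efficiency, and the scripts were tested on simulated data. Replicates are animals by their numbers, but nothing states how they were taken, so p-values measure only the spread between these samples.

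Footprint and total RNA libraries of 1 number come from 1 lysate. Deviations of their genes from the group mean correlated at -0.004 (knockout) and 0.259 (wild type), over 12089 genes. Members and gene lists were chosen with earlier results of these data known. Named were all members, every gene called in the pathway, clock and glucocorticoid lists, their extremes, and the 5 genes most like Tdo2 and Nampt. Coordinates are from GENCODE M21, and 96.5% of matched genes had the span in the table. Sequences are from RefSeq, GRCm38.p6.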

Additional observations from a re-analysis of the deposited data

How the results depend on the processing

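Counts over all genes depended on the processing, with 519 called in total RNA, 29 in footprints and 2 in efficiency. In total RNA the count was 217 with all libraries in one fit, 1675 on recovered reads, 26 with no filter and 117 to 563 with 1 library left out. In footprints it was 315 in one fit, 217 on recovered reads, 1 with no filter, 17 with a pseudocount of 0.1 and 1 to 6 with 1 library left out. In efficiency it was 1 on recovered reads, 0 with no filter, 5 with a pseudocount of 0.1 and 0 after quantile normalization. With the animal as a replicate block it was 1, and members called in efficiency stayed at 0, with Tdo2 at -1.03. Members called in total RNA were 2 on recovered reads and 0 to 2 with 1 library left out. The pseudocount set the size for Tdo2 footprints, which were -3.21 with 0.1 and -3.34 on recovered reads. In the alternatives run, 8 differences of members changed sign, none of them called. With 1 library left out, footprints of Afmid ranged from -2.20 to 0.48 (positive without knockout animal 1) and those of Nmnat2 from -0.13 to 0.17 (negative without knockout animal 3, and -0.08 without wild-type animal 2). Efficiency fits that left out 1 animal lost both of its libraries. Over these fits Afmid ranged from -0.94 to 1.34 (negative without knockout animal 3, and -0.15 without wild-type animal 2). Nampt ranged from -0.050 to 0.18 and Nmnat2 from -0.40 to 0.061, each changing sign without knockout animal 1. With all animals and a pseudocount of 0.1, the efficiency difference of Afmid was -0.41. The cause was not tested. The low reads of Afmid, Haao, Kmo, Kynu and Qprt limit what could be detected.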

Other observations

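Nnt, which passes hydride between the mitochondrial pools of NAD and NADP, carries a deletion in C57BL/6J mice as background. Its listed total RNA was 0.148 and 0.173 RPKM in the knockout, against 0.143 and 0.196 in wild type. Its footprints were listed at 0 in all 4 footprint libraries. Nnt was in the list of other NAD genes and was not among those tested.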
